A study of Mus musculus with 4 samples.

Results

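The lymphatic endothelial genes described here are 10 genes that build or mark lymphatic vessels (Vegfc, Vegfd, Flt4, Prox1, Foxc2, Lyve1, Pdpn, Mmrn1, Reln and Ccl21a), followed through RNA sequencing of the pregnant mouse uterus. They are 10 of the 55421 genes listed for each library. The list was selected by name with the difference between the genotypes already known, so the measured values of WT against Qa-2- uteri helped to choose it, and the members' values are given as a description with no test.

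Uteri were taken at E18.5, close to term, from 2 WT mice of the strain C57BL/6J and from 2 Qa-2- mice of the strain B6.Cg-H2b3/FlaCmwJ, also called B6.K1. B6.K1 is an H2 congenic line that arose from crosses of other congenic strains and lacks the genes of the class Ib molecule Qa-2, so a difference between the groups cannot be told apart from one caused by other genes of the exchanged H2 segment. Mice of both groups were mated within their strain at 8 to 12 weeks of age, and no other allele and no treatment are described for them. Each library comes from a piece of frozen uterus of 1 mouse. WT and Qa-2- mice came from different suppliers.

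Lymphatic vessels drain fluid, antigen and immune cells from a tissue. Their endothelial cells are set apart from blood endothelium by the transcription factor Prox1 and grow when the secreted factors VEGF-C and VEGF-D, encoded by Vegfc and Vegfd, bind the receptor VEGFR-3, encoded by Flt4. In the mature vessel Foxc2 takes part in valve formation, Lyve1 encodes a hyaluronan receptor, Pdpn encodes podoplanin, which keeps lymph and blood apart by binding a platelet receptor, Mmrn1 and Reln encode secreted proteins, and Ccl21a encodes a chemokine that attracts cells carrying CCR7. Several of these genes are shared with other cells. Lyve1 is also made by a subset of tissue macrophages, Pdpn by mesothelium and stromal fibroblasts, Mmrn1 by megakaryocytes and platelets, and Vegfc, Vegfd, Foxc2 and Reln are also made by cells other than endothelium.

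Per read pair of Flt4, Prox1 varied 1.04-fold between the 4 libraries, Pdpn 1.67-fold and Vegfc 3.26-fold. Because of these unlike patterns, the stretches of 250 bases upstream of the RefSeq transcript start are shown for these 3 genes. They were read from RefSeq windows on GRCm38.p6, at chr1:190170828-190171077 (minus strand) for Prox1, chr4:143299565-143299814 (minus strand) for Pdpn and chr8:54077282-54077531 (plus strand) for Vegfc, and run 5′ to 3′ towards the start. Capitals mark matches to the searched motifs.
Prox1: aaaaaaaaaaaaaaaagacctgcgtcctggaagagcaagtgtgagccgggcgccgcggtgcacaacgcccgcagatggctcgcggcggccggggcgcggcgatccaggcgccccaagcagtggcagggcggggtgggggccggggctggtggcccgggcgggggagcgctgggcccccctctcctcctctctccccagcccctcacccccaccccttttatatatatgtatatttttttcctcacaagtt
Pdpn: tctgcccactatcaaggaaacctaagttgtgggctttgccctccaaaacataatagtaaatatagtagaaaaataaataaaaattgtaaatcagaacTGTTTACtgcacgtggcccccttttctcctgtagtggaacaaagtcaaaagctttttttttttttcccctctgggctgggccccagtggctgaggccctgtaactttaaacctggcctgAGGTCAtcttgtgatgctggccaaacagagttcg
Vegfc: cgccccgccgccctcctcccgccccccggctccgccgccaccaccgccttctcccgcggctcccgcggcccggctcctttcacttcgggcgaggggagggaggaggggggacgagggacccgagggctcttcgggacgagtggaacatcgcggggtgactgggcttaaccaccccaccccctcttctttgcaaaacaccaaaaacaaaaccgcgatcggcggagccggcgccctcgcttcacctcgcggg

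Windows were found for 8 of the 10 genes (9 windows, since Prox1 has more than 1 start), and none was found for Lyve1 and Foxc2. Motifs of 4 kinds were searched on both strands of these 250 bases. The ETS-type motif CAGGAAG was in 10.8% of all 32851 windows and in none of the 9 windows of these genes. The SOX-type motif AACAAT was in 9.42% of all windows and in that of Mmrn1. This window and 1 of those of Prox1, which is not the one printed, lie inside the gene as the count files annotate it, and the windows of Flt4, Vegfd and Ccl21a overlap an annotated exon, so these 5 are not purely upstream sequence. The FOX-type motif TGTTTAC (3.17% of all windows) and the nuclear receptor motif AGGTCA (14% of all windows) were both in the window of Pdpn, and neither of them was in the windows of Prox1 and Vegfc. No motif was thus shared by these genes in this window, and these matches are a description of letters only.

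Total counts lay between 33286390 and 41041299 read pairs per library, so that 1 CPM, a count scaled to a common library size, stood for 33.29 to 41.04 read pairs. CPM of single genes use library sizes scaled by TMM, a factor that evens out differences in RNA composition and lay between 0.9574 and 1.051. The Qa-2 genes H2-Q6 and H2-Q7, which share reads with near-identical neighbours, checked the labels: they had 1192 to 6318 read pairs in WT and 2 to 4 in Qa-2- libraries. A minimum of 1 CPM in 2 or more libraries left 14492 genes for the fit. With edgeR's quasi-likelihood test and Benjamini-Hochberg adjustment, 0 genes passed in favour of WT (0%) and 0 in favour of Qa-2- uteri (0%), with 0.170 as the lowest adjusted p of any gene. Unadjusted p-values under 0.05 favoured WT for 8.09% and Qa-2- uteri for 7.09% of the genes tested, whereas DESeq2 called 2.79% and 2.04% by adjusted p. For a single gene, 2 against 2 libraries cannot give an exact two-sided permutation p below 0.33.

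For each of the 10 genes the lower WT library still stood above the higher Qa-2- library. Among all genes tested, both WT libraries stood above both Qa-2- libraries in 25.4%, and both Qa-2- above both WT in 24.5%. Since the list was chosen with this contrast known, nothing is read from the count of 10. Of the 10 genes 9 passed the filter on low values, and Ccl21a did not. The median log2 ratio of the group means was 1.74 over all 10 members, with a range from 0.57 to 2.71, beside a median log2 fold change of 0.01 over all genes tested. Leaving out Qa-2- replicate 1 gave a median of 2.28 and leaving out Qa-2- replicate 2 gave 1.34. In bulk tissue, fewer lymphatic endothelial cells and less of these RNAs per cell cannot be told apart.

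**Figure D1:**
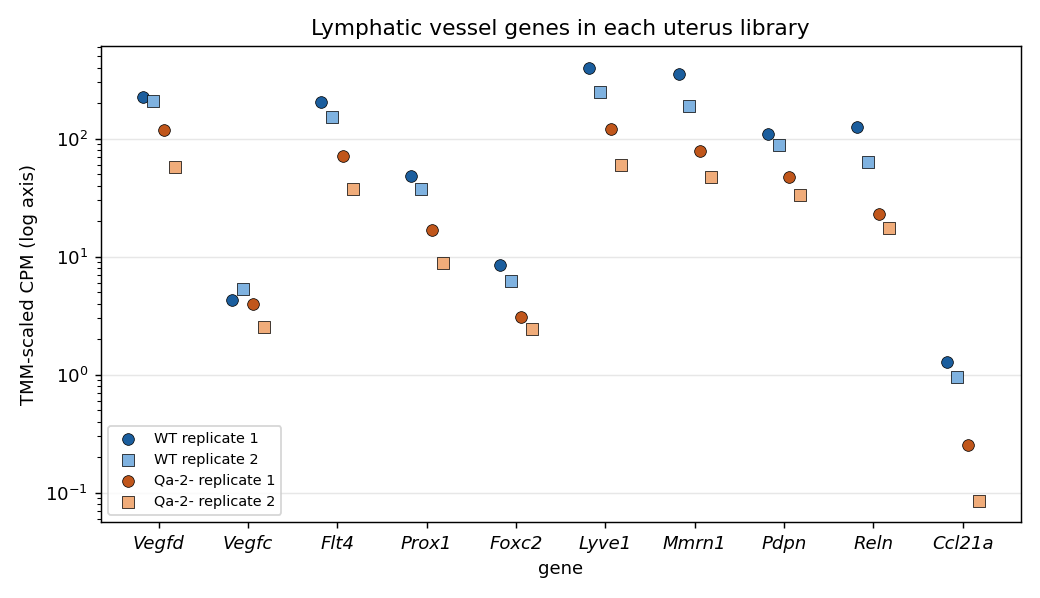
TMM-scaled CPM (log axis) of the 10 lymphatic vessel genes, 1 point per uterus library, blue for the 2 WT and orange for the 2 Qa-2- libraries. For each gene both blue points lie above both orange points; the gap is narrowest for Vegfc, where 4.26 CPM in WT replicate 1 stands beside 3.97 CPM in Qa-2- replicate 1.

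The ligands differed from each other in level and in ratio. Vegfd (chromosome X, 164373378 to 164402650, GRCm38) had 9016 and 7888 read pairs in WT and 4235 and 1992 in Qa-2- libraries, which corresponds to 225 and 209 CPM in WT and 119 and 57.0 CPM in Qa-2- uteri. The WT libraries lay close together, the Qa-2- libraries differed 2.10-fold from each other, and the groups did not overlap. The log2 fold change of Vegfd, WT over Qa-2-, was 1.30 ± 0.37 (SE, n = 2 per group). It was 0.86 without Qa-2- replicate 2 and 1.93 without Qa-2- replicate 1. Vegfc (chromosome 8, 54077606 to 54187096) was scarce, with 171 and 202 read pairs in WT and 141 and 88 in Qa-2- libraries. Its levels were 4.26 and 5.36 CPM in WT and 3.97 and 2.52 CPM in Qa-2- uteri. Here the lower WT library was only 1.07 times the higher Qa-2- library, and the log2 fold change of 0.57 ± 0.36 (SE, n = 2 per group) was the smallest of the 9 fitted members. It was 0.27 without Qa-2- replicate 2, 0.39 without WT replicate 2 and 0.93 without Qa-2- replicate 1. Corrected for length, Vegfd exceeded Vegfc 53.6- and 39.7-fold in WT and 30.5- and 23.0-fold in Qa-2- uteri on the FPKM scale, which is CPM divided by the exon length in kilobases.

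Flt4 (chromosome 11, 49609263 to 49652739), whose product VEGFR-3 receives both ligands, had 8233 and 5789 read pairs in WT and 2535 and 1299 in Qa-2- libraries. These are 205 and 153 CPM in WT against 71.4 and 37.1 CPM in Qa-2- uteri. Replicate 1 was the higher library in both groups, and the lower WT library still exceeded the higher Qa-2- library 2.15-fold. The log2 fold change of Flt4 was 1.72 ± 0.36 (SE, n = 2 per group). Kdr, which encodes VEGFR-2 and is found on blood as well as lymphatic endothelium, reached 104 and 119 CPM in WT and 60.5 and 46.5 CPM in Qa-2- uteri. Per length, Flt4 was 2.17 and 1.41 times Kdr in WT and 1.30 and 0.88 times Kdr in Qa-2- uteri, so the order of the 2 receptors turned in Qa-2- replicate 2.

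Among the transcription factors, Prox1 (chromosome 1, 190118035 to 190170714), the gene that gives lymphatic endothelium its identity, had 1941 and 1424 read pairs in WT and 599 and 307 in Qa-2- libraries. Its levels were 48.4 and 37.8 CPM in WT against 16.9 and 8.78 CPM in Qa-2- uteri, without overlap. The log2 fold change of Prox1 was 1.75 ± 0.35 (SE, n = 2 per group), next to that of Flt4. Foxc2 (chromosome 8, 121116171 to 121118895), a single-exon gene, had 340 and 235 read pairs in WT and 110 and 85 in Qa-2- libraries. At 8.47 and 6.23 CPM in WT against 3.10 and 2.43 CPM in Qa-2- uteri, Foxc2 had a log2 fold change of 1.41 ± 0.32 (SE, n = 2 per group).

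The surface protein genes were high. Lyve1 (chromosome 7, 110850607 to 110863239) had 16038 and 9435 read pairs in WT and 4287 and 2095 in Qa-2- libraries, or 399.5 and 250.1 CPM in WT against 121 and 59.9 CPM in Qa-2- uteri. Its 2 Qa-2- libraries differed 2.02-fold, the groups did not overlap, and the log2 fold change was 1.85 ± 0.43 (SE, n = 2 per group). For Lyve1 it was 1.43 without Qa-2- replicate 2, 1.44 without WT replicate 1 and 2.44 without Qa-2- replicate 1. Pdpn (chromosome 4, 143267431 to 143299564) had 4412 and 3324 read pairs in WT and 1664 and 1165 in Qa-2- libraries. The levels of Pdpn were 110 and 88.1 CPM in WT against 46.9 and 33.3 CPM in Qa-2- uteri, with a log2 fold change of 1.30 ± 0.23 (SE, n = 2 per group).

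Mmrn1, Reln and Ccl21a had the highest ratios of the 10 genes. Mmrn1 (chromosome 6, 60924976 to 60989378), which encodes multimerin 1, had 14052 and 7094 read pairs in WT and 2782 and 1642 in Qa-2- libraries. At 350.1 and 188 CPM in WT against 78.4 and 46.9 CPM in Qa-2- uteri, its WT libraries differed 1.86-fold from each other. The log2 fold change of Mmrn1 was 2.10 ± 0.41 (SE, n = 2 per group). Reln (chromosome 5, 21884454 to 22344702), which encodes reelin, had 4984 and 2401 read pairs in WT and 823 and 606 in Qa-2- libraries. Its levels were 124 and 63.7 CPM in WT against 23.2 and 17.3 CPM in Qa-2- uteri, again with more spread between the WT than between the Qa-2- libraries. The log2 fold change of Reln was 2.21 ± 0.37 (SE, n = 2 per group), the highest of the 9 fitted members, and it was 1.62 without WT replicate 1.

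Ccl21a (chromosome 4, 42772860 to 42773993) was close to the lower end of detection, with 51 and 36 read pairs in WT and 9 and 3 in Qa-2- libraries. Summed over the libraries, 87 read pairs in WT stood against 12 in Qa-2- uteri, a ratio of 6.56 after scaling to library size (exact Poisson 95% interval 3.57 to 13.2, which covers counting error only). Ccl21a has near-identical copies on chromosome 4, and read pairs that fitted more than 1 position were not counted. Of its 821 transcript stretches of 50 bases, 71.6% also occur in Gm21541 and 70.5% in Gm13304. These copies had 0 to 7 read pairs in any library. The level of Ccl21a is therefore uncertain and may be too low in all 4 libraries.

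Compared per length, the genes kept a similar order in every library. In WT uteri the mean level was 111 FPKM for Lyve1, 90.1 FPKM for Vegfd, 54.5 FPKM for Pdpn, 45.9 FPKM for Mmrn1 and 21.8 FPKM for Flt4, followed by 5.13 FPKM for Prox1, 3.96 FPKM for Reln, 2.697 FPKM for Foxc2, 1.96 FPKM for Vegfc and 1.28 FPKM for Ccl21a. The neighbours Lyve1 and Vegfd, Pdpn and Mmrn1, Prox1 and Reln, and Reln and Foxc2 overlapped between their WT libraries and were not separated. In Qa-2- uteri Vegfd stood first in both libraries, with a mean of 36.6 FPKM against 30.9 FPKM for Lyve1. Vegfc, the gene with the smallest difference, stood at rank 9 in both WT libraries and at rank 7 in both Qa-2- libraries, where its mean level was 1.32 FPKM. Reln moved the other way, from rank 7 to rank 9.

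The genes varied together between mice of the same genotype. Replicate 1 was the higher WT library for 9 of the 10 genes, with Vegfc as the exception, and the higher Qa-2- library for all 10. The higher library exceeded the lower by a median of 1.33-fold in WT and 1.80-fold in Qa-2- uteri over the members. Over all genes tested these medians were 1.21-fold and 1.19-fold.

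Because the genes were high and low in the same libraries, each was also set against Flt4 within its own library, a comparison added after the data were seen. Prox1 had 23.6 and 24.6 read pairs per 100 of Flt4 in WT and 23.6 and 23.6 in Qa-2- uteri, while Flt4 itself spanned 37.1 to 205 CPM. The 95% Wilson intervals for counting error were 22.4 to 24.8 and 23.2 to 26.1 in WT and 21.6 to 25.8 and 20.9 to 26.8 in Qa-2- libraries, and all 4 overlapped. Prox1 thus varied 1.04-fold per Flt4 between libraries. The median over the 14480 genes compared was 5.67-fold, and 0 of them had a narrower range than Prox1. Since Flt4 and Prox1 were both listed with their genotype difference known, and most genes did not differ in the same direction, this is a description of the pair and carries no test.

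Lyve1 kept 195 and 163 read pairs per 100 of Flt4 in WT and 169 and 161 in Qa-2- uteri. This is a range of 1.21-fold, with 5 of the genes compared in a narrower range. Like Prox1, the other members were listed with their genotype difference known, so these ranks carry no test. Vegfd (1.53-fold), Mmrn1 (1.56-fold), Foxc2 (1.61-fold), Pdpn (1.67-fold) and Reln (1.86-fold) were less steady. In this order, 44, 50, 61, 81 and 122 of the genes compared had a narrower range. For Mmrn1 and Reln WT replicate 1 was the highest library per Flt4, at 171 and 60.5 read pairs per 100. Pdpn, which mesothelium and fibroblasts also make, had 53.6 and 57.4 read pairs per 100 of Flt4 in WT and 65.6 and 89.7 in Qa-2- uteri. Vegfc departed furthest among the 9 fitted members, with 2.08 and 3.49 per 100 in WT and 5.56 and 6.77 in Qa-2- uteri. Its range was 3.26-fold, with 1092 of the genes compared in a narrower range. Some endothelial genes outside the list spread less than Reln, such as Cdh5 (1.82-fold) and Cldn5 (1.78-fold), while Pecam1 spread 3.41-fold.

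**Figure D2:**
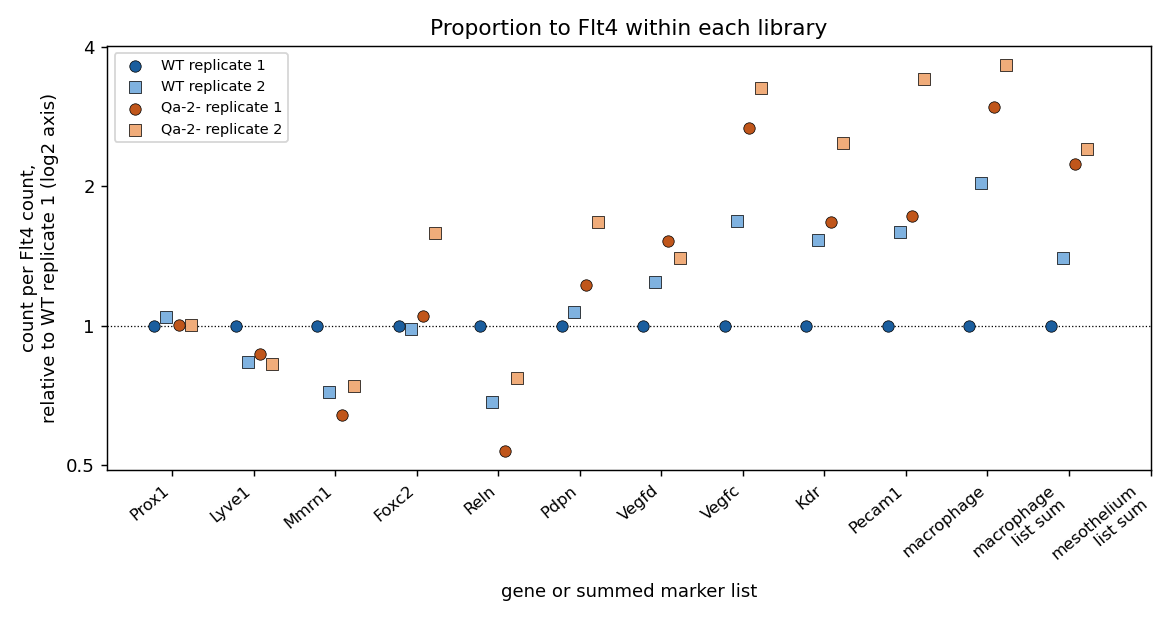
Read pairs of each gene or summed marker list per read pair of Flt4 in the same library, relative to WT replicate 1 (log2 axis), 1 point per library, blue for WT and orange for Qa-2-. The points of Prox1 lie within 1.04-fold and those of Lyve1 within 1.21-fold, whereas Vegfc, Pecam1 and the summed macrophage markers spread 3.26-, 3.41- and 3.65-fold. Cdh5, an endothelial gene that is not plotted, spread 1.82-fold.

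Markers of blood endothelium were also higher in WT, but some of them are shared with lymphatic endothelium. The 8 blood endothelial markers summed to 1384 and 1375 CPM in WT and 726 and 716 CPM in Qa-2- uteri, and each of the 8 was higher in both WT libraries (25.4% of all genes tested). Of the 8, 7 had an unadjusted p under 0.05 in favour of WT (8.09% of all genes tested) and 0 an adjusted p under 0.05 by edgeR. Their median log2 ratio was 0.84, beside 1.74 for the 10 lymphatic genes, of which Vegfc, Vegfd, Pdpn and Foxc2 had lower ratios than Cdh5 of the blood list. The 10 were listed with their difference known, so their higher median is not read as a larger difference. Pecam1, the adhesion molecule CD31 of all endothelium, had 302 and 360.0 CPM in WT against 182 and 187 CPM in Qa-2- uteri. Cdh5, the endothelial cadherin of both vessel types, had the highest ratio of the 8, with 444 and 239 CPM in WT and 116 and 105 CPM in Qa-2- uteri (log2 fold change 1.63 ± 0.34, SE, n = 2 per group), and was singled out after its values were seen.

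Divided by Pecam1, which lymphatic endothelium also makes, in the same library, Flt4 reached 0.68 and 0.43 in WT and 0.39 and 0.20 in Qa-2- uteri. WT replicate 2 and Qa-2- replicate 1 lay close to each other, and the groups did not overlap. The log2 ratio of the group means per Pecam1, WT over Qa-2-, was 0.90 for Flt4, 0.92 for Prox1, 1.03 for Lyve1 and 1.30 for Mmrn1. Against the summed blood endothelial list the same values were 0.79, 0.81, 0.91 and 1.17. The values per Pecam1 depended on single libraries: without WT replicate 1 they were 0.53 for Flt4, 0.58 for Prox1, 0.50 for Lyve1 and 0.61 for Mmrn1, and without Qa-2- replicate 2 they were 0.49, 0.51, 0.60 and 0.96. Without Qa-2- replicate 1 they were 1.47, 1.49, 1.65 and 1.74.

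Macrophage markers were mixed. Their 8 genes summed to 593 and 904 CPM in WT and 611 and 392 CPM in Qa-2- uteri, with overlapping groups, and WT replicate 2 was the highest library, whereas Lyve1 was highest in WT replicate 1. Of the 8 genes, 5 (Adgre1, Cd68, Folr2, Timd4 and C1qa) were higher in both WT libraries (25.4% of all genes tested), and Csf1r, Mrc1 and Cd163 overlapped. Their median log2 ratio was 0.72, and 3 of the 8 had an unadjusted p under 0.05 in favour of WT (8.09% of all genes tested) and 0 an adjusted p under 0.05 by edgeR. These 3 were the folate receptor gene Folr2, the complement gene C1qa and the lysosomal gene Cd68, with log2 fold changes of 1.14, 0.97 and 0.76. Mrc1, the mannose receptor of tissue macrophages, had 108 and 216 CPM in WT and 172 and 84.9 CPM in Qa-2- uteri. Timd4, a marker of resident macrophages, stayed between 0.11 and 3.29 CPM. How much of the Lyve1 signal comes from macrophages was not tested.

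Mesothelial markers, by contrast, separated the groups. The 7 markers summed to 134 and 141 CPM in WT and 105 and 58.5 CPM in Qa-2- uteri, and 6 of the 7 were higher in both WT libraries (25.4% of all genes tested). The exception and most abundant of them was Wt1, which uterine stroma also makes, with 63.3 and 82.9 CPM in WT and 82.9 and 46.6 CPM in Qa-2- uteri. Upk3b, a membrane protein of mesothelium, had 23.7 and 17.1 CPM in WT and 2.11 and 1.69 CPM in Qa-2- uteri, with a log2 fold change of 3.42 ± 0.29 (SE, n = 2 per group). None of the 7 was at 0 in any library. The median log2 ratio of the 7 was 3.27. By edgeR, 6 of them had an unadjusted p under 0.05 in favour of WT (8.09% of all genes tested) and 0 an adjusted p under 0.05. Pdpn, the lymphatic gene that mesothelium shares, had a log2 fold change of 1.30, below that of Prox1. The part of mesothelium or of the serosal surface in the levels of Pdpn was not tested.

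Other tissue also differed between the pieces. Epithelial markers summed to 2033 and 1206 CPM in WT and 2869 and 2736 CPM in Qa-2- uteri, led by Krt8, and 5 of the 6 were higher in both Qa-2- libraries (24.5% of all genes tested). Smooth muscle markers, led by Acta2, summed to 20610 and 35934 CPM in WT and 19426 and 9996 CPM in Qa-2- uteri. The sums did not overlap, their log2 ratio of 0.94 equalled that of the blood endothelial sums to 2 decimals, and 4 of the 6 genes were higher in both WT libraries (25.4% of all genes tested). Stromal fibroblast markers, led by Col1a1, summed to 15355 and 27692 CPM in WT and 29575 and 15339 CPM in Qa-2- uteri. In both lists WT replicate 2 was higher than WT replicate 1, unlike 9 of the 10 lymphatic genes. Trophoblast and yolk sac markers, led by Afp, summed to 480 CPM in Qa-2- replicate 1 and to 5.58 to 62.7 CPM in the other libraries. Qa-2- replicate 2, with 22.2 CPM of these markers, had the lowest level of all 10 lymphatic genes. Platelet and megakaryocyte markers, led by Pf4, summed to 27.7 to 40.2 CPM and overlapped between the groups, and so did lymphocyte markers (2.74 to 6.36 CPM, led by Cd4) and immediate early and heat shock genes (383 to 738 CPM, led by Jun). The part of these tissues in the lymphatic values was not tested.

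**Figure D3:**
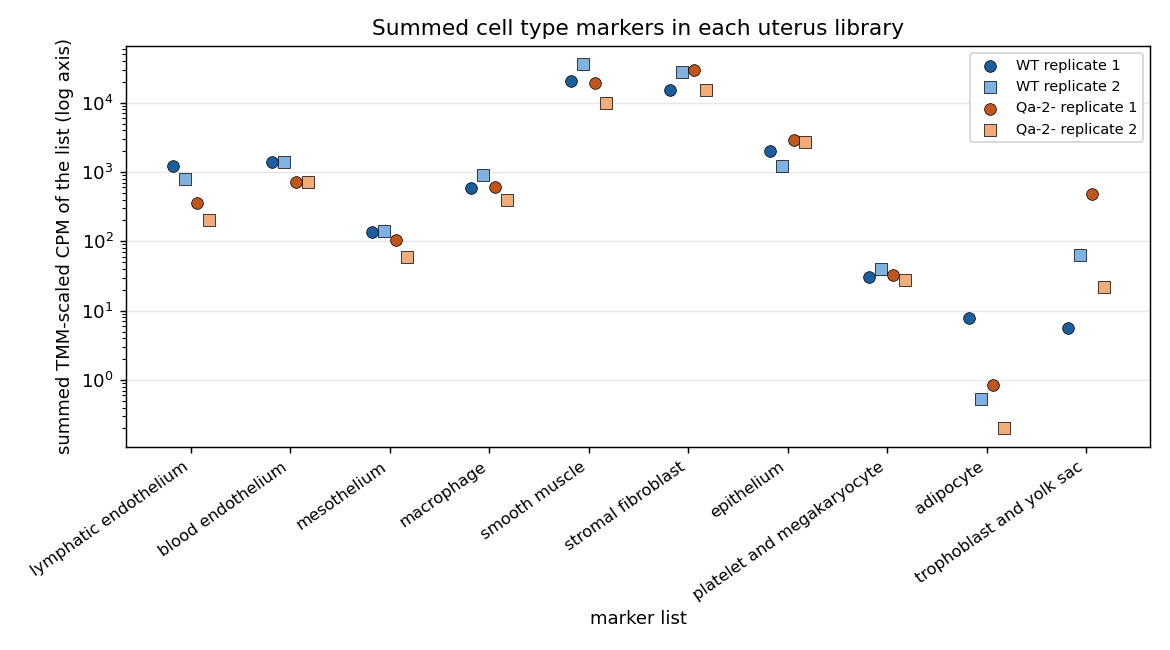
Summed TMM-scaled CPM (log axis) of cell type marker lists in the 4 uterus libraries, blue for WT and orange for Qa-2-. Lymphatic endothelium (Flt4, Prox1, Lyve1, Pdpn, Mmrn1, Reln and Ccl21a) falls between 203 and 358 CPM in Qa-2- and 782 and 1238 CPM in WT libraries. Blood endothelium, mesothelium and, by a narrow gap, smooth muscle are also higher in both WT libraries. Epithelium is higher in both Qa-2- libraries, while the other sums, such as macrophage and stromal fibroblast, overlap.

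To see whether the wider pathway differed, 44 further genes of lymphatic growth, ligand maturation, valve formation, reelin and CCL21 signalling were examined, of which 40 passed the filter. By edgeR 0 of the 40 had an adjusted p under 0.05. An unadjusted p under 0.05 favoured WT for 20 of them (8.09% of all genes tested) and Qa-2- uteri for 2 (7.09%). DESeq2 called 12 of them by adjusted p in favour of WT (2.79% of all genes) and 0 in favour of Qa-2- uteri (2.04%). Of all 44, 26 were higher in both WT libraries (25.4% of all genes tested), 3 in both Qa-2- libraries (24.5%), and 15 overlapped. The median log2 ratio of the list was 0.63. Many of these genes are also active in blood endothelium, so their values do not stand for lymphatic vessels alone.

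The genes of enzymes and cofactors that mature VEGF-C gave mixed values. Ccbe1, which brings the protease to VEGF-C, had 28.6 and 14.8 CPM in WT and 16.8 and 11.2 CPM in Qa-2- uteri, with overlap. Adamts3, the protease itself, had 12.7 and 34.1 CPM in WT and 24.8 and 17.6 CPM in Qa-2- uteri. Its relative Adamts14 was higher in both Qa-2- libraries, with 8.62 and 24.6 CPM in WT against 52.5 and 34.9 CPM in Qa-2- uteri (log2 fold change -1.40 ± 0.52, SE, n = 2 per group), the lowest value of the list. Of these 3 genes none was higher in both WT libraries (25.4% of all genes tested), and with so few genes nothing is read from this count.

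All 4 receptor partners (Kdr, Nrp2, Itga9 and Itgb1) were higher in both WT libraries (25.4% of all genes tested). Nrp2, the neuropilin that binds VEGF-C together with VEGFR-3, had 140 and 181 CPM in WT and 107 and 56.9 CPM in Qa-2- uteri, with a log2 fold change of 0.97 ± 0.34 (SE, n = 2 per group). Per 100 of Flt4 the read pairs of Nrp2 ranged from 68.5 in WT replicate 1 to 153 in Qa-2- replicate 2. Kdr had a log2 fold change of 1.06 ± 0.20 (SE, n = 2 per group) and was called by DESeq2.

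Among 7 further transcription factors, 4 were higher in both WT libraries (25.4% of all genes tested). Tbx1, a T-box factor active in lymphatic endothelium and other tissues, had 19.2 and 19.8 CPM in WT and 6.31 and 5.26 CPM in Qa-2- libraries, differing little within either group (log2 fold change 1.75 ± 0.21, SE, n = 2 per group). Its adjusted p by edgeR was 0.229, and DESeq2 called it. Sox18, which switches on Prox1 in development, had 84.5 and 84.9 CPM in WT and 46.2 and 41.5 CPM in Qa-2- uteri. Nr2f2, the venous factor COUP-TFII that cooperates with Prox1, overlapped between the groups at 114 and 154 CPM in WT and 122 and 102 CPM in Qa-2- uteri.

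Junction genes split. Cldn5, the claudin of endothelial tight junctions in both vessel types, had 132 and 88.8 CPM in WT and 36.3 and 33.7 CPM in Qa-2- uteri. Cldn11 was high in WT replicate 1 alone, with 1594 read pairs against 45 in WT replicate 2 and 23 and 18 in Qa-2- libraries, so its log2 fold change of 5.13 ± 1.65 (SE, n = 2 per group) rested on that library. The same library also had the highest sum of adipocyte markers, 7.92 CPM against 0.20 to 0.85 CPM in the others. The adipocyte list, led by Adipoq, had 0 of 5 genes past the filter. Fat4 and Dchs1, a pair of cadherins needed for valve shape, overlapped, with log2 fold changes of -0.11 and -0.22.

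**Figure D4:**
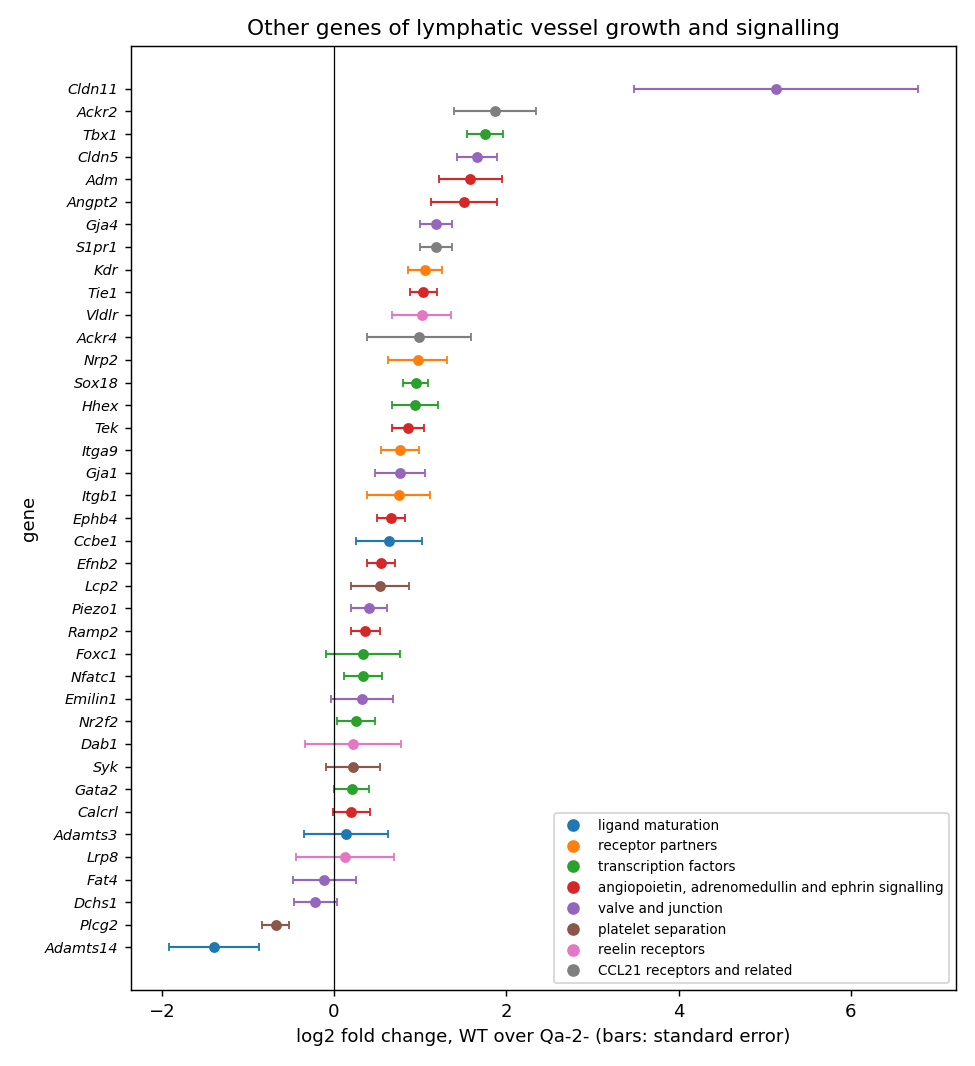
Log2 fold change, WT over Qa-2-, of 39 of the further lymphatic pathway genes that passed the filter, with bars for the standard error (n = 2 libraries per group) and colour for the role. Values run from 5.13 for Cldn11, with the widest bar, to -1.40 for Adamts14, and 35 genes lie above 0.

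The partners of the secreted proteins gave a mixed picture. For reelin, the receptor gene Vldlr had 359 and 241 CPM in WT and 185 and 111 CPM in Qa-2- uteri (log2 fold change 1.02 ± 0.34, SE, n = 2 per group). The second receptor Lrp8, with 3.31 and 1.35 CPM in WT and 1.55 and 2.72 CPM in Qa-2- uteri, and the adaptor Dab1, with 7.40 and 10.3 CPM in WT and 11.5 and 3.69 CPM in Qa-2- uteri, overlapped. Thus Reln itself had a larger difference than any of its 3 partners.

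For CCL21, the receptor gene Ccr7 had 18 and 16 read pairs in WT and 9 and 13 in Qa-2- libraries, below the filter. Ackr4, a scavenger of CCL21, had 5.11 and 7.53 CPM in WT and 4.87 and 1.49 CPM in Qa-2- uteri. Ackr2, a chemokine scavenger found on lymphatic endothelium, had 24.99 and 10.2 CPM in WT and 5.55 and 4.09 CPM in Qa-2- uteri (log2 fold change 1.87 ± 0.48, SE, n = 2 per group), and was called by DESeq2. Of the platelet pathway that podoplanin triggers, 0 of 4 genes were higher in both WT libraries (25.4% of all genes tested), too few genes to read this count. Plcg2, a phospholipase of immune cells and platelets, was higher in both Qa-2- libraries, with 22.0 and 22.6 CPM in WT and 33.8 and 37.6 CPM in Qa-2- uteri.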

How the data were processed

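RNA was taken from frozen uteri of 2 WT and 2 Qa-2- mice, and poly(A)-enriched, strand-specific libraries were sequenced as read pairs. The authors aligned them with STAR 2.7.3a to GRCm38.p6, assigned read pairs to genes using featureCounts 2.0.0 (both per the submitters' processing notes), and deposited raw counts without normalization, with an exon length per gene. Counting was on the reverse strand, with both ends mapped, and pairs with several positions or genes were not counted, which lowers genes with near-identical copies. Symbols were matched for 55154 of the 55421 gene identifiers, and 267 had none.

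Groups follow the strain in the labels. The members and lists were chosen with earlier results of these data known. The marker and pathway lists were written from general knowledge, and of the latter the 5 highest and 5 lowest log2 fold changes and the direct partners of members are named. A gene of that list is counted with it but not reported here. Genes with at least 1 CPM of the library total in at least 2 samples were compared with edgeR 4.0.16 (TMM, quasi-likelihood test, Benjamini-Hochberg adjustment over all genes kept) in R 4.3.3. The standard error is the size of the log2 fold change divided by the square root of F. FPKM use the deposited exon length. Other settings tried were DESeq2 1.42.0, scaling by upper quartiles or by library totals, omission of the filter, a minimum of 10 counts per sample, a replicate block and leaving out each library. The fit was tested on simulated data. Libraries of a group differed by more than sampling noise (chi-square per gene 207.9 in WT and 130.6 in Qa-2-). Each library is 1 piece of uterus of 1 mouse, so the p-values measure the spread between mice and between pieces together. Intervals and floors cover counting error only.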

Additional observations from a re-analysis of the deposited data

How the results depend on the processing

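The number of genes past the adjusted threshold depended on the test and filter. Against 0 in either direction, DESeq2 gave 404 in favour of WT and 296 in favour of Qa-2- uteri, and the absence of a filter gave 47 and 14. Of the further pathway genes, DESeq2 called 12 and the fit without a filter 2, against 0. Leaving out 1 library at a time, which assumes that the lone sample varies like the other group, gave 0 to 88 genes higher in WT, 0 to 5 higher in Qa-2- uteri and 0 to 4 pathway genes, the highest each time without WT replicate 2. Without WT replicate 1, 4 genes were higher in WT. The median log2 ratio of the 10 lymphatic genes was 1.74, and ranged from 1.34 to 2.28 when 1 library was left out.

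No value of a lymphatic gene changed direction. Leaving out 1 library could not turn it, since both WT libraries stood above both Qa-2- libraries for each gene, so nothing is read from this. Of the recomputed log2 fold changes, 95 stayed within 1 SD of the libraries and 4 moved beyond it. Without Qa-2- replicate 1 these were 1.93 for Vegfd, 2.27 for Flt4 and 2.29 for Prox1, and without WT replicate 1 it was 1.62 for Reln. The log2 ratios per Pecam1 ranged from 0.49 to 1.47 for Flt4, 0.51 to 1.49 for Prox1, 0.50 to 1.65 for Lyve1 and 0.61 to 1.76 for Mmrn1 when 1 library was left out. Their direction could not turn either, since the groups did not overlap. Replicate numbers only name the mice and pair nothing: with a replicate block 2 genes were higher in WT. Deviations of same-numbered libraries correlated at -0.40, and a crossed pairing, tried only once the values were known, gave 0 genes. Upper-quartile scaling and library totals moved the median of all genes to 0.02 and -0.08. Depth limits Ccl21a, and 2 mice per group limit every comparison.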

Other observations

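Stromal genes outside the lymphatic list did not move as 1 group. Dcn and Lum, small proteoglycans of the extracellular matrix, were higher in both WT libraries, with 3495 and 2772 CPM of Dcn in WT against 1887 and 1287 CPM in Qa-2- uteri. Lum had 793 and 493.5 CPM in WT against 359.6 and 221 CPM in Qa-2- uteri. Pdgfra, a growth factor receptor of fibroblasts, was instead higher in both Qa-2- libraries, with 172 and 252 CPM in WT against 329.7 and 309 CPM in Qa-2- uteri. These genes were picked after their values were seen, and none had an adjusted p under 0.05 by edgeR. Stab2, a scavenger receptor of sinusoidal and lymphatic endothelium, ran against the lymphatic genes: it was below the filter, with 0.72 and 0.61 CPM in WT and 0.79 and 1.001 CPM in Qa-2- uteri (23 to 35 read pairs per library), and is 1 of the 3 pathway genes higher in both Qa-2- libraries.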
